A study of Mus musculus with 39 samples.

Results

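The short loose nucleosome wrapping domains (LoNRDs) of mouse embryonic stem (ES) cells were 234 of the 525 LoNRDs and of the 1086 nucleosome wrapping domains (NRDs) that were called on chromosomes 1 to 19, and of 1243 NRDs in the whole list. All these numbers hold for this deposited call set in 100 kb bins and not for other calls of NRDs. They were chosen by 2 measured properties of a called domain, a wrapping score below 0 and a length below 1000 kb. Score and length are therefore given as a description, and the values that were read against them are replication timing, neighbouring sequence and genes. Short LoNRDs summed to 123.6 Mb, which was 5.20% of the length of all autosomal NRDs, while the 291 LoNRDs of 1 Mb or more summed to 996 Mb.

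The cells were R1 mouse ES cells, a wild type line that the labels describe as derived from the inner cell mass, grown with leukemia inhibitory factor (LIF). NRDs came from H3-wrapping-seq, with 4 libraries of formaldehyde-crosslinked cells from 2 independent experiments. Replication timing (RT) domains came from BrdU-labelled DNA of the same line, with 4 sorted fractions (S1 early to S4 late) in each of 2 independent experiments and so 8 libraries. No group carried a treatment or a mutation, and a single line stands for all mouse ES cells here. Each list gives 1 value per domain and names no experiment. No spread between experiments, no depth per domain and no test could therefore be had from these lists. They also hold no expression by which the cell type could be checked. Variation is described by the counts of domains, by quartiles and by the number of the 19 chromosomes that showed the same order.

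In a nucleosome, DNA is wrapped around a core of histones, and MNase, a nuclease, digests the DNA that the core leaves exposed. Long fragments after digestion are read as tight wrapping and short fragments as loose wrapping, so that a LoNRD is a stretch with a relative excess of short fragments. Chromosomes are also copied in a fixed order during S phase, with gene-rich, active chromatin usually early and gene-poor chromatin late. Large late domains in ES cells often hold clusters of chemoreceptor genes and very long neuronal genes, which are silent in these cells. The wrapping score and the RT value come from separate libraries.

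Of the short LoNRDs, 159 (67.9%) had at least 50% of their length in late RT domains and 71 (30.3%) had at least 50% in early RT domains, with 4 domains split evenly and so counted in both. Over all autosomal NRDs these shares were 52.1% late and 46.5% early. There were 97 short LoNRDs lying wholly in late RT domains (41.5%) and 48 lying wholly in early RT domains (20.5%), against 18.6% and 13.5% of all autosomal NRDs. These shares depend on the length of a domain. Tightly wrapped NRDs under 1 Mb had 17.2% wholly late and 30.4% wholly early, and LoNRDs of 1 Mb or more had 20.3% and 0.344%. The early members are loose domains in DNA that is copied early, and the promoters shown next were taken from the ends of this range.

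The sequences are promoters of the protein-coding gene nearest the centre of the 5 earliest and the 5 latest short LoNRDs, ranked by mean RT value where 1 kind of RT domain took up 90% or more of the length. Each is the 250 bases before the start in RefSeq (GRCm38.p6), written 5′ to 3′ on the strand of the gene, with CpG dinucleotides (CG, the same on both strands) in capitals.
Ipp: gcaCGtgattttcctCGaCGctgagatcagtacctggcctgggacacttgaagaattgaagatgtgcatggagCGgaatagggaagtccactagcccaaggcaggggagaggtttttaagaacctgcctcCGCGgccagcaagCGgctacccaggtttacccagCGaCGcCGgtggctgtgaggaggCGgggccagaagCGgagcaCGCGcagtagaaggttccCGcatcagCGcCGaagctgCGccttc
Gm4924: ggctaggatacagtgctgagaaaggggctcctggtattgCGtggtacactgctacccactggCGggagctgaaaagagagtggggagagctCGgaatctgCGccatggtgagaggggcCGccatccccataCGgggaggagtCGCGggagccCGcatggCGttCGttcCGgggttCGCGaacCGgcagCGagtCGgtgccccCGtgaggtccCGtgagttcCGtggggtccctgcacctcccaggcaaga
Dnm1l: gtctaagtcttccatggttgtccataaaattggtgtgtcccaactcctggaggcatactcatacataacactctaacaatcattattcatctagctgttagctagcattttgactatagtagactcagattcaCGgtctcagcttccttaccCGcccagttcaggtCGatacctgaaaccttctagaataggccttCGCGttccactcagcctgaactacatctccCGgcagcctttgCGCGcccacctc
Erc1: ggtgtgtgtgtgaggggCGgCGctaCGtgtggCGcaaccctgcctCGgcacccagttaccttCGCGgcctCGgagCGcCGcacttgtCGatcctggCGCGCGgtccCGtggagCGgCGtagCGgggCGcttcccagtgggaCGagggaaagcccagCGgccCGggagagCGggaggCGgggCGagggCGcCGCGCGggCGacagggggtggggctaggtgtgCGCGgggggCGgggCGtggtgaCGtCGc
Pappa2: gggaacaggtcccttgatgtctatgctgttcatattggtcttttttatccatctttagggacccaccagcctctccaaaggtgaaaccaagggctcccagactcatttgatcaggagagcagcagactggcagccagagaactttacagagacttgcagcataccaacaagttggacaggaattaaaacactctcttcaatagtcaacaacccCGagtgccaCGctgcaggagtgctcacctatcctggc

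The first 4 of these promoters lay in wholly early short LoNRDs and that of Pappa2 in a wholly late one. Ipp (chr4:116507299-116507548, plus strand) encodes a kelch-repeat protein, and its promoter held 18 CpG. Gm4924 (chr10:82354275-82354524, plus strand) held 20 CpG. Dnm1l (chr16:16359032-16359281, minus strand), the GTPase of mitochondrial fission, held 8 CpG. Erc1 (chr6:119848151-119848400, minus strand), a scaffold protein of vesicle docking, held 36 CpG, the most of the 5. Pappa2 (chr1:158958176-158958425, minus strand), a protease of IGF-binding proteins, held 2 CpG, and this RefSeq start lies 22315 bases from the start of the gene in GENCODE. Mucl1 and Olfr391-ps were the nearest genes of the remaining early and late domain with a gene.

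Across all genes the CpG number of promoters moved with RT within the short LoNRDs. A RefSeq promoter within 1000 bases of the GENCODE start was found for 501 genes starting in short LoNRDs, with a median of 7 CpG in 250 bases (quartiles 2 and 18). The 250 promoters in early RT domains had a median of 12 CpG (quartiles 4 and 21), and the 214 in late RT domains had a median of 2 (quartiles 1 and 11.75). At least 10 CpG were present in 57.6% of the early and 28.04% of the late promoters, beside 57.9% of all 13557 autosomal promoters that were matched. Of the 477 late gene starts in short LoNRDs, 152 were olfactory and 51 and 14 vomeronasal receptors of types 1 and 2. Of the 374 early starts 8, 3 and 3 were. The promoters were not compared without these clustered receptors. At least 1 CpG was present in 95.4% of all the matched promoters. In LoNRDs of 1 Mb or more the median was 4 CpG over 1786 promoters, and in TiNRDs (tightly wrapped NRDs) under 1 Mb it was 11 CpG over 896.

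Short LoNRDs measured 300 to 900 kb, since the list places borders in steps of 100 kb and holds no NRD shorter than 300 kb. There were 48 of 300 kb, 61 of 400 kb, 33 of 500 kb, 27 of 600 kb, 20 of 700 kb, 24 of 800 kb and 21 of 900 kb. The 109 members of 300 and 400 kb are 3 or 4 bins of the list long. Their borders fall on bin edges, but the authors called NRDs on an index smoothed over more bins than any member holds. Borders may therefore be less precise than a bin, and the part of smoothing in the calls of short members was not tested. Just outside the length limit were 16 LoNRDs of 1000 kb, whose median score was −0.394, while the 21 members of 900 kb had a median of −0.380.

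The wrapping score of short LoNRDs, which has no unit, ran from −2.39 to −0.018, with a median of −0.251 and quartiles of −0.369 and −0.160. Members nearest to the limit of 0 were chr1:57300001-57600000 with −0.018 and chr12:30700001-31000000 with −0.0303. The nearest domain on the tight side was chr13:18800001-19100000 with 0.0125. LoNRDs of 1 Mb or more had a median score of −0.671. Within the short LoNRDs the median moved from −0.144 at 300 kb to −0.380 at 900 kb, so short lengths and weak scores went together in the list.

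Chromosome 7 had the most short LoNRDs, 24, or 1.65 per 10 Mb, where they made up 9.89% of the NRD length. Chromosomes 13 and 19 followed with 1.49 and 1.47 per 10 Mb. The fewest per length were on chromosome 8, with 0.541 per 10 Mb. Near chromosome ends, 4 members lay within 5 Mb of the first base and 4 within 5 Mb of the last base. These counts were not compared with those of all NRDs.

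The 5 members with the lowest scores lay in regions of gene copies, and 3 of them were on chromosome 7. The lowest score, −2.39, belonged to chr4:42400001-42900000, with 13 gene starts that include the chemokines Ccl27b, Ccl19 and Ccl21a and the receptor gene Il11ra2. Next came chr7:9400001-9900000 (−1.88), with the vomeronasal receptors Vmn2r46 and Vmn2r47, and chr7:21500001-22200000 (−1.18), with 16 starts of which 9 were Vmn1r receptors. The member chr14:25900001-26300000 (−1.16) held the homeobox genes Cphx1, Cphx2, Cphx3, Duxbl1, Duxbl2 and Duxbl3 beside copies of Plac9 and Tmem254. The fifth, chr7:32600001-33000000 (−1.01), held the secretoglobins Scgb2b15 and Scgb1b15.

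These 5 domains also stood apart in assembly or in base content. Their assembled bases made up 92.8%, 90%, 92.9%, 100% and 100% of their length in that order, and 11 of the 234 members had under 99% of their bases assembled. Of the 8 members with less A/T than their flanks, 4 were among these 5. Reads from near-identical copies are often removed by a filter on mapping quality, and its part in these scores was not tested. In RT they were mixed, with chr14:25900001-26300000 wholly early at a mean log2 value of 1.21 and chr7:32600001-33000000 without any RT call.

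Short LoNRDs mostly sat between TiNRDs, as a list of alternating runs would place them. A TiNRD touched the member on both sides in 186 cases (79.5%), on 1 side in 46 and on neither side in 2. The touching TiNRDs of the 186 had a median length of 1300 kb (quartiles 600 and 2800 kb) and a median score of 0.468. In 120 cases both neighbours were longer than the LoNRD, and in 9 both were shorter. A neighbouring LoNRD, at a gap in the list, was present on at least 1 side of 40 members.

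Short domains also came in chains. Of the members, 89 had no touching NRD under 1 Mb, 101 were in chains of 2 or 3 touching short NRDs and 44 in chains of 4 or more. The longest chains had 6 NRDs. An example is chr13:19400001-22200000, where 3 short LoNRDs alternated with 3 short TiNRDs, and which holds the histone gene domain chr13:21500001-21800000.

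RT differed with the size of the neighbours. At least 50% early length was seen for 16 of the 67 members between 2 TiNRDs of 1 Mb or more (23.9%), for 24 of 83 with 1 such neighbour (28.9%) and for 16 of 36 with both neighbours under 1 Mb (44.4%). These are counts of domains of a single list, and the lengths of the members were not matched.

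By length of DNA, 28.6% of short LoNRDs lay in early RT domains, 65.9% in late RT domains and 5.50% had no RT call. The early share was 9.28% in LoNRDs of 1 Mb or more and 61.8% in TiNRDs under 1 Mb. On 19 of 19 chromosomes short LoNRDs had a larger early share than LoNRDs of 1 Mb or more, and on 19 of 19 a smaller one than short TiNRDs. The margin over long LoNRDs was smallest on chromosome 7, with 11.8% against 11.4%. Among LoNRDs of 1 Mb or more 11 of 291 (3.78%) had at least 50% early length, and among short TiNRDs 159 of 250 (63.6%).

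The shortest members were early most often. At least 50% early length was found in 20 of 48 members of 300 kb (41.7%) and in 25 of 61 of 400 kb (41.0%). The share was 24.2% at 500 kb, 22.2% at 600 kb, 20.0% at 700 kb, 16.7% at 800 kb and 19.05% at 900 kb. Just past the limit, 2 of 16 LoNRDs of 1000 kb were early by this count. Of the 48 wholly early members, 35 measured 300 or 400 kb.

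**Figure D1:**
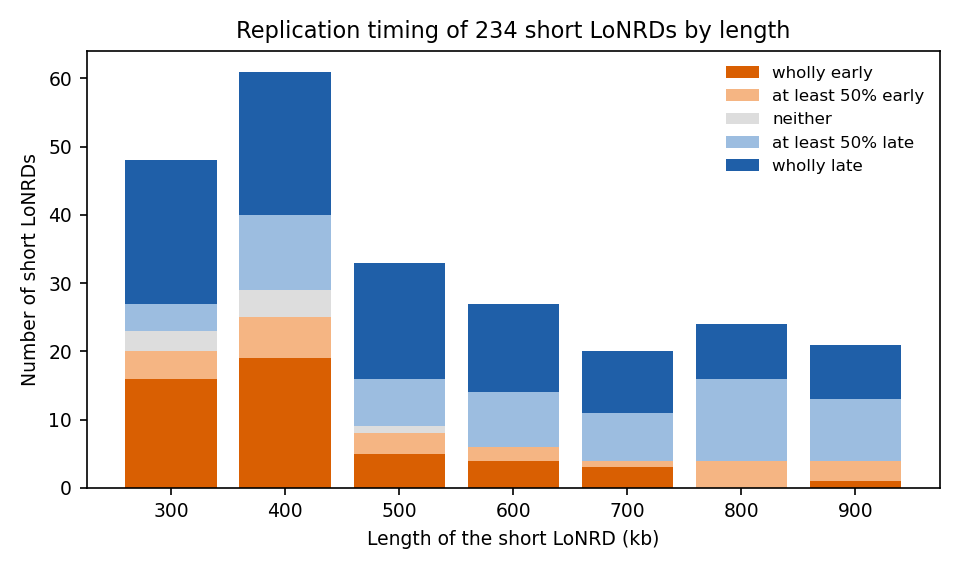
Number of short LoNRDs (vertical axis) by length in kb (horizontal axis), with bars divided by the share of each domain in early and late RT domains. Wholly early members make up 16 of 48 at 300 kb and 1 of 21 at 900 kb, and the 4 domains split evenly are drawn as early.

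The mean RT value of a member, the log2 early to late value averaged over its called bases, ran from −1.16 to 1.61 with a median of −0.41 (quartiles −0.76 and 0.58). The 97 wholly late members had a median of −0.80 (quartiles −0.91 and −0.61), and the 48 wholly early members had a median of 0.92 (quartiles 0.71 and 1.08). The RT domains that held most of a member had ordinary values. Late ones had a median log2 value of −0.72, as did all 849 late autosomal RT domains, and early ones had 0.85, beside 0.71 over all 768 early autosomal RT domains.

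Wrapping score and RT value showed almost no common trend among the short LoNRDs. Across 232 members with an RT call Spearman's rho was −0.04 and Pearson's r was −0.06, while across the 291 LoNRDs of 1 Mb or more rho was 0.33 and r was 0.31. The points share their libraries and their chromosomes, and are not replicates. The median score was −0.210 in wholly early and −0.207 in wholly late members. Length and RT value had a rho of −0.25.

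**Figure D2:**
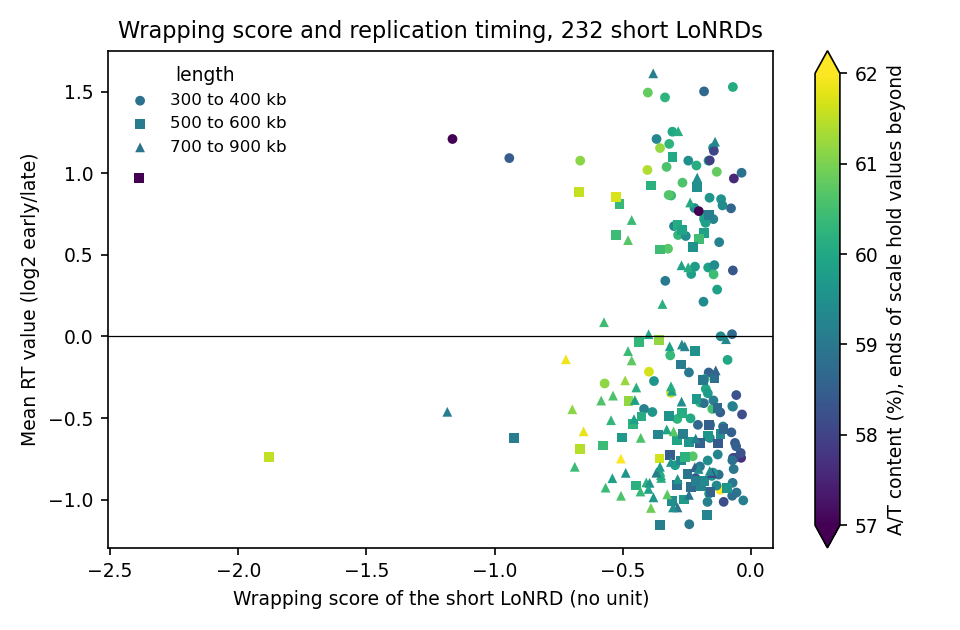
Wrapping score (horizontal axis, no unit) against mean RT value (vertical axis, log2 early/late) of the 232 short LoNRDs with an RT call, with marker shape for length and colour for A/T content in percent. Early and late members spread over the same scores, with rho −0.04, and the lowest score, −2.39, belongs to an early domain of low A/T content.

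The surroundings of early and late members differed. With the 300 kb on either side called early or late by at least 50% of its length, 52 members were early with early DNA on both sides and 50 were late with late DNA on both sides. A late member between early flanks, the form of a short late interruption, was seen in 23 cases (9.83%), while 89 of 291 LoNRDs of 1 Mb or more had this form (30.6%). Members with an early flank on 1 side and a late flank on the other were late in 73 cases and early in 13. An early member between late flanks was seen once, in 0.427% of the members, against 43 of 250 short TiNRDs (17.2%).

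Few short LoNRDs had both borders close to those of an RT domain. Of the 158 members whose main RT domain was late, 97 lay wholly inside it, and the median length of these RT domains was 1150 kb. In 16 cases both borders were within 100 kb of those of the RT domain, and in 92 at least 1 border was. At least 50% of both the member and the RT domain was shared in 72 cases. Of the 74 members whose main RT domain was early, 48 lay wholly inside it, and the median length was 1925 kb. In 2 cases both borders were within 100 kb, and in 18 at least 1 border was. At least 50% of both was shared in 12 of the 74. Read from the other list, 59 of 401 late RT domains under 1 Mb (14.7%) and 14 of 413 early ones (3.39%) had at least 50% of their length in short LoNRDs.

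Short LoNRDs were A/T-rich islands in less A/T-rich surroundings. Their median A/T content was 59.6% (quartiles 59.1 and 60.2%, n = 234), between 61.0% in LoNRDs of 1 Mb or more and 57.6% in short TiNRDs. This order of medians held on 19 of 19 chromosomes against long LoNRDs and on 19 of 19 against short TiNRDs. Compared with the mean of the 300 kb on either side, 223 of 231 members with 2 complete flanks had a higher A/T content (96.5%), by a median of 2.12 percentage points, and 212 were higher than each flank on its own. LoNRDs of 1 Mb or more exceeded their flanks by a median of 3.42 points, and short TiNRDs lay below theirs by a median of −2.0.

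MNase is known to cut A/T-rich DNA more readily, and the score is made from the lengths of MNase fragments. A/T content and score may therefore not be independent. Score and A/T content had a Spearman's rho of −0.58 across the 234 members, although Pearson's r was −0.05. Among the 5 lowest scores A/T content was mixed, with 53.2%, 61.5%, 59.1%, 53.7% and 58.9% from the lowest score upward. In LoNRDs of 1 Mb or more rho was −0.86 and r was −0.82. What part base content has in the calls was not tested.

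Early and late members did not separate by A/T content. Its median was 59.8% in the 48 wholly early and 59.4% in the 97 wholly late members, and on 8 of the 14 chromosomes with at least 2 of each kind the early median was the higher. Against their flanks the wholly early members stood out by a median of 2.44 percentage points and the wholly late ones by 1.79. In the profile across borders, mean A/T content rose from 56.2% at 175 kb outside to 60.0% at 125 kb inside the wholly early members, and from 57.3% to 59.5% in the wholly late members.

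**Figure D3:**
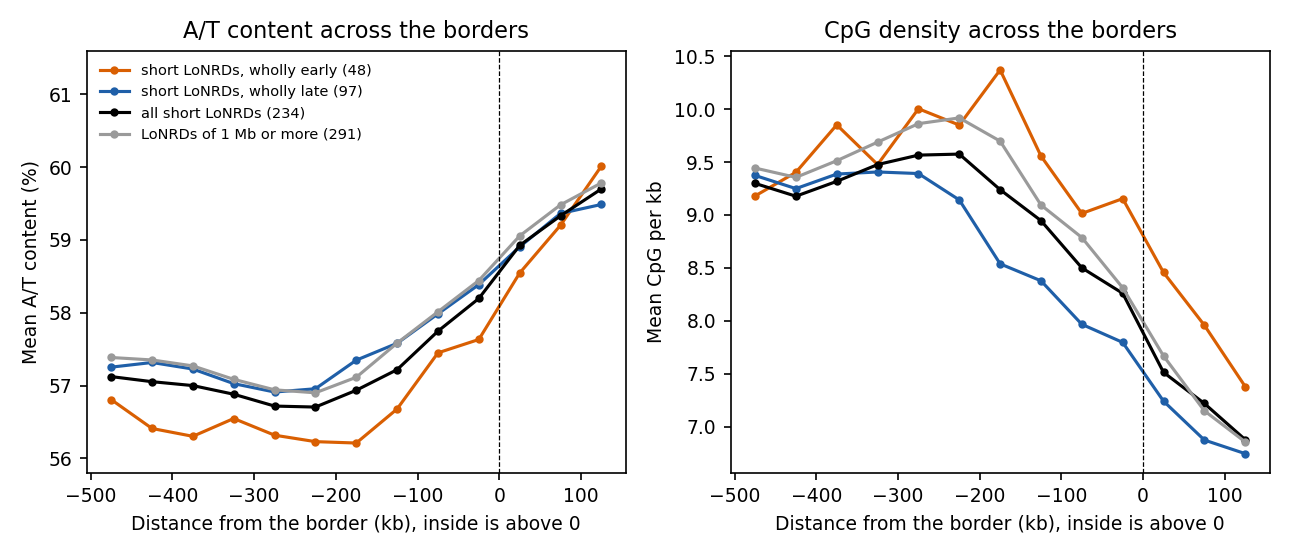
Mean A/T content in percent (left) and mean CpG per kb (right) in 50 kb windows by distance from the border of the domain in kb, with both borders folded together and positive distances inside. Lines are means over wholly early, wholly late and all short LoNRDs and LoNRDs of 1 Mb or more. The wholly early members reach 60.0% A/T at 125 kb inside and keep more CpG (7.38 per kb) than the wholly late members (6.74 per kb).

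CpG and repeats did separate them. The observed over expected CpG ratio had a median of 0.194 in wholly early and 0.161 in wholly late members, higher in the early ones on 12 of 14 chromosomes. Repeat-masked bases made up a median of 36.1% in wholly early members (quartiles 32.1 and 41.1%) and 31.0% in wholly late members (quartiles 27.3 and 36.0%), with the early median higher on 12 of 14 chromosomes. All short LoNRDs had a median of 33.9%, LoNRDs of 1 Mb or more 37.4% and short TiNRDs 29.9%. With repeats left out the median A/T content of the wholly early members was 59.4% and that of the wholly late members 58.6%.

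Genes took up more of the early than of the late short LoNRDs. Protein-coding genes covered a median of 73.7% of a wholly early member and 29.0% of a wholly late member, with the early median higher on 11 of 14 chromosomes. Gene starts numbered 231 in the 48 wholly early members, or 11.4 per Mb, and 302 in the 97 wholly late members, or 5.93 per Mb. The early density was the higher on 13 of 14 chromosomes. Of the 302 late starts, 161 were olfactory or vomeronasal receptor genes in 8 domains, and without these receptors the late density was 2.77 per Mb and the early density 11.3 per Mb. No protein-coding start was present in 38 of the 97 wholly late and in 2 of the 48 wholly early members.

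**Figure D4:**
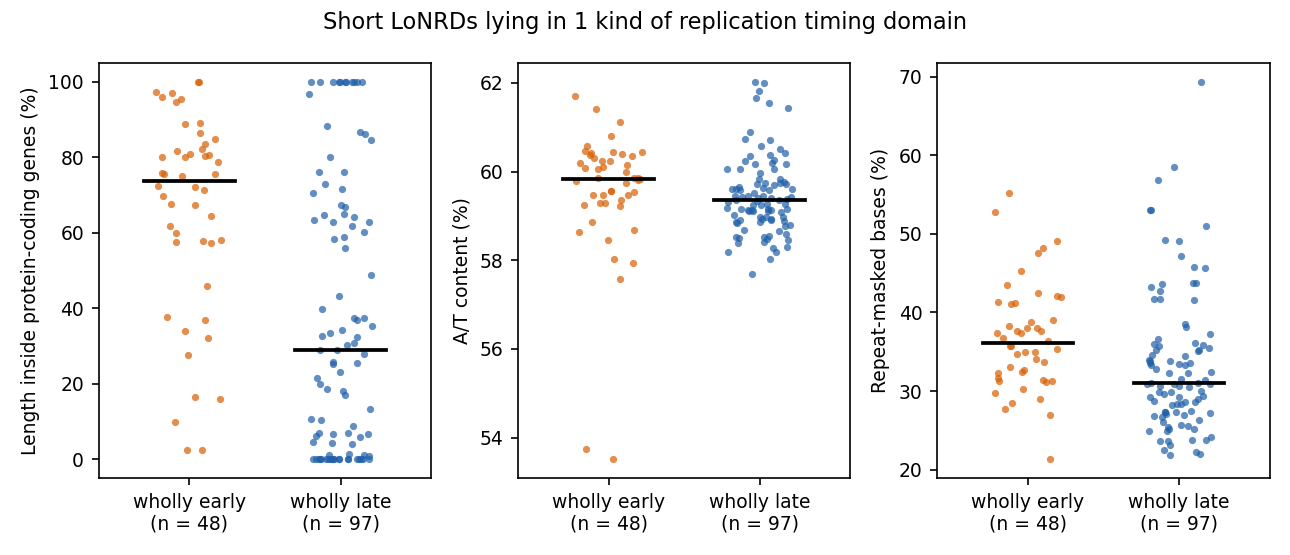
Share of the length inside protein-coding genes, A/T content and share of repeat-masked bases, all in percent, for the 48 wholly early and the 97 wholly late short LoNRDs. Points are domains and lines are medians, which lie at 73.7 and 29.0% for genes, 59.8 and 59.4% for A/T content and 36.1 and 31.0% for repeats.

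Over all short LoNRDs there were 921 protein-coding gene starts in 181 domains, 7.45 per Mb, with a median of 2 and at most 54 in a domain. LoNRDs of 1 Mb or more had 3.32 and short TiNRDs 10.11 per Mb. The density of short LoNRDs was above that of long LoNRDs on 14 of 19 chromosomes and below that of short TiNRDs on 17 of 19. Without olfactory and vomeronasal receptors the densities were 5.41, 2.45 and 9.59 per Mb. There were 53 short LoNRDs without a protein-coding start (22.6%), where the share over all autosomal NRDs was 7.55%. Among short TiNRDs, which also measured 300 to 900 kb, 14 of 250 (5.60%) held no such start.

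Non-coding genes followed the same order. Long non-coding RNA genes had 2.81 starts per Mb in short LoNRDs, 1.77 in LoNRDs of 1 Mb or more and 4.63 in short TiNRDs, and there were 54 microRNA genes, 0.437 per Mb. Pseudogenes were 6.01 per Mb, beside 4.17 in long LoNRDs and 6.22 in short TiNRDs.

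Of the 5 earliest short LoNRDs, 3 had a TiNRD on both sides, and all 5 had early DNA in their flanks. The earliest was chr15:103600001-104000000 at the end of its chromosome, with a mean log2 RT value of 1.53 and the mucin-like genes Mucl1 and Mucl2, and 73.4% of its bases were assembled, the least of the members. The second, chr4:116300001-116700000 (RT 1.502), held 8 starts, among them Nasp, a histone chaperone, Prdx1, a peroxide reductase, and Mast2, a kinase. Its A/T content was 58.7% against 56.3% in its flanks. Then came chr10:82200001-82600000 (RT 1.47) with Zfp938 and Gm4924, and chr16:16000001-16700000 (RT 1.26) with Dnm1l, Pkp2, a desmosome protein, and Yars2, a mitochondrial tRNA synthetase. The fifth, chr6:119700001-120000000 (RT 1.26), held Erc1 and Rad52, a recombination protein, and exceeded its flanks by 4.93 percentage points of A/T.

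Among the 5 latest, 3 held no protein-coding gene at all. These were chr11:56300001-56900000 (RT −1.16), chr19:54400001-54800000 (RT −1.15) and chr12:27800001-28300000 (RT −1.09), with A/T contents of 59.1%, 59.0% and 59.2%. The others were chr11:73400001-74200000 (RT −1.05), with 21 olfactory receptors among 23 starts, and chr1:158500001-159400000 (RT −1.05), with Pappa2 and Cop1, a ubiquitin ligase. The member chr1:157700001-158400000 lies in the same RT domain with an equal RT value, and the longer domain was taken. The olfactory cluster on chromosome 11 had early flanks on both sides and exceeded them by 5.64 percentage points of A/T.

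Single long genes filled another group. In 31 short LoNRDs (13.2%) a single protein-coding gene covered at least 80% of the length, beside 2 LoNRDs of 1 Mb or more and 7 short TiNRDs (2.80%), a count that depends on the length of the domain. Of the 31, 23 were at least 50% late and 7 at least 50% early. All 234 short LoNRDs had a similar split, with 159 and 71. Among the 31, 13 lay wholly inside the gene and 16 held no gene start. The 10 with the longest genes were each at least 50% late.

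Rbfox1, a neuronal splicing factor of 1526 kb, held the whole of chr16:6300001-6900000, with a mean RT value of −0.73. Ptprt, a receptor tyrosine phosphatase, held chr2:161600001-162200000 (RT −0.91), and Auts2 held chr5:132100001-132500000 (RT −0.74), whose score of −0.0386 was among the weakest. Anks1b, a postsynaptic protein, held chr10:89900001-90700000 (RT −0.87), with early DNA on both sides. Nckap5 held chr1:126100001-126400000 (RT −0.74), and Erc2, a protein of the presynaptic active zone, held chr14:27900001-28200000 (RT −0.81). Adamtsl1, the fused gene Iqschfp and the cation channel Trpm3 covered 87.3%, 84.6% and 82.6% of their domains, with RT values of −0.31, −0.49 and −0.57. Erc1 and Erc2, related scaffold genes, thus each had a short LoNRD, the former early and the latter late.

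Gene families in tandem clusters made up the gene-rich members. Of protein-coding starts in autosomal NRDs, 4.47% (921 of 20596) were in short LoNRDs, and the share was 27.1% for Vmn1r vomeronasal receptors (55 of 203), 16.7% for Vmn2r vomeronasal receptors (19 of 114) and 15.8% for olfactory receptors (178 of 1124). These genes lie in clusters, so that the counts rest on few domains, 8, 6 and 11. LoNRDs of 1 Mb or more held larger numbers, 75 of 203, 69 of 114 and 719 of 1124, beside 3303 of 20596 over all genes. Chemoreceptor clusters were therefore not particular to short LoNRDs. At least 5 starts of a listed family were present in 19 short LoNRDs, of which 10 were on chromosome 7. Of the 19, 14 were at least 50% late and 4 at least 50% early, near the 67.9% and 30.3% over all short LoNRDs. The A/T content of the 19 ran from 58.4 to 62.01%, and their repeats had a median of 47.2%.

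The olfactory cluster of chromosome 7 was spread over 4 short LoNRDs with 28, 47, 30 and 33 olfactory receptors. The largest, chr7:103300001-104100000, had 54 gene starts, the most of the members, a score of −0.508, an RT value of −0.75 and 62.01% A/T. Within it lay the beta-globin genes Hbb-bt, Hbb-bs, Hbb-bh2, Hbb-bh1 and Hbb-y, which erythroid cells express at high level. Its neighbour chr7:102700001-103200000 had the same RT value of −0.75, as a single RT domain held both. Further on, chr7:104500001-105300000 was wholly late (RT −0.97), and chr7:107900001-108800000 was 61.1% late with the rest uncalled. Smaller olfactory clusters were in chr11:73400001-74200000 with 21 receptors and chr10:78900001-79400000 with 6.

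Vomeronasal receptors, the pheromone receptors of the accessory olfactory organ, filled a series of domains in the first part of chromosome 7. Late RT domains covered 91.7% of chr7:5400001-6000000 (7 Vmn1r), 100% of chr7:10100001-10800000 (6 Vmn1r), 100% of chr7:11700001-12600000 (12 Vmn1r) and 100% of chr7:23500001-23900000 (12 Vmn1r). Their scores were −0.579, −0.653, −0.302 and −0.151. On chromosome 5, chr5:108800001-109700000 held 10 Vmn2r genes and was 72.2% late. Of the 252 chemoreceptor starts in short LoNRDs, 238 were in domains with at least 50% late length and 14 in domains with at least 50% early length.

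Zinc finger genes of the Zfp series went the other way in RT. They had 34 of 380 starts in short LoNRDs (8.95%), of which 30 were in early RT domains, beside 374 of 921 over all genes. The 34 starts rest on 6 domains, with 19 and 9 of them in the clusters below. The cluster chr13:67000001-67700000 had 19 Zfp genes among 26 starts, with Rsl1, a repressor of sex-limited liver genes, and was wholly early with an RT value of 0.97. Its score was −0.210 and its A/T content of 59.5% exceeded its flanks by 1.21 percentage points. A second cluster, chr17:21400001-21900000, had 9 Zfp genes, was wholly early (RT 0.53) and had a score of −0.354. Such KRAB zinc finger proteins are known to silence transposable elements.

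Replication-dependent histone genes gave a further early member. In chr13:21500001-21800000, 300 kb long, 12 Hist1 genes and 8 olfactory receptors stood among 22 starts, or 73.3 per Mb. The domain was 66.7% early and otherwise uncalled, its RT value was 0.85 and its score −0.162. The 12 genes include Hist1h1b, a linker histone, and all 12 lay in the early part.

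Immune and secreted protein families were represented by a few clusters. The interferon domain chr4:88800001-89100000 held Ifna1, Ifna4, Ifna5, Ifna6, Ifna7 and Ifna11 with Ifne and was 66.7% early (RT 0.62). Together with the chemokines of chromosome 4 and Cxcl2 this came to 10 of 85 listed chemokine, interferon and interleukin genes (11.8%). Defensins, antimicrobial peptides, had 10 of 60 starts (16.7%), all of them beta-defensins in chr8:19100001-19500000, which was 75% late. Of these 10 starts, 6 were in late and 4 in early RT domains. Serpins had 7 of 60 (11.7%), with 6 Serpinb genes in chr13:32900001-33200000, where 33.3% was late and the rest uncalled. The list of prolactins, Psg and Ceacam genes had 7 of 54 (12.96%), with 5 Ceacam genes in the wholly late chr7:17700001-18200000.

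**Figure D5:**
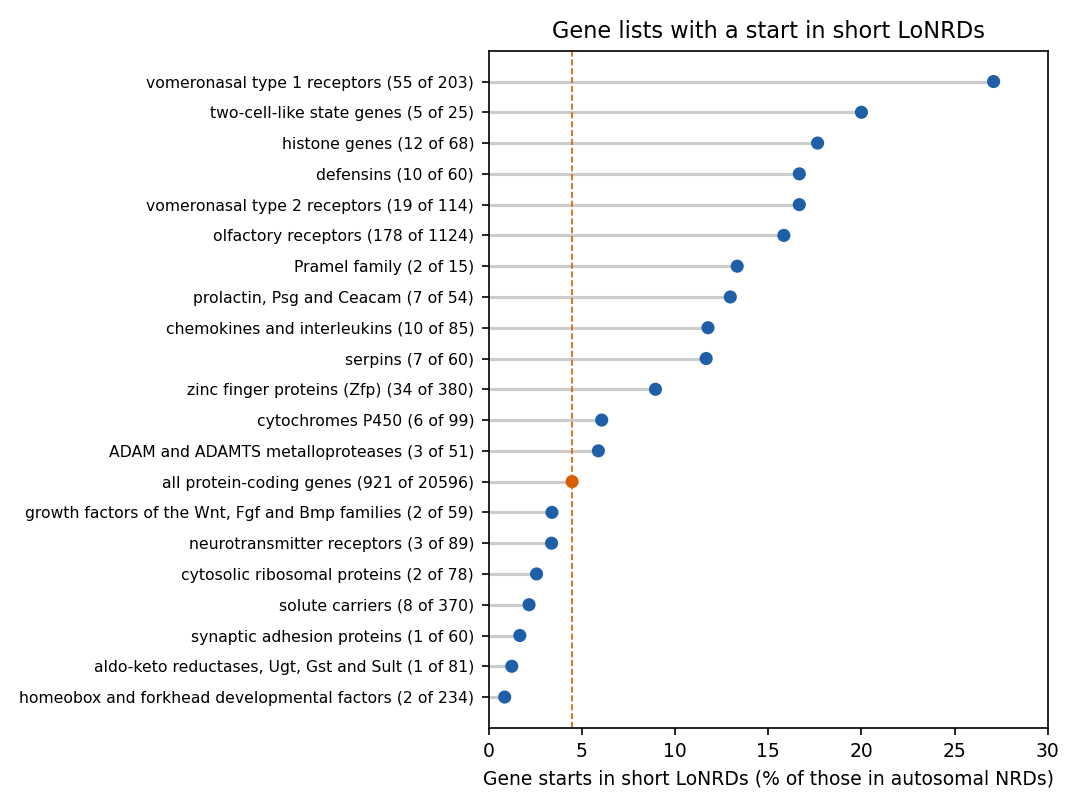
Share of the starts of each gene list that lay in short LoNRDs, in percent of the starts in autosomal NRDs (horizontal axis), with the numbers beside each name. The dashed line is the share over all protein-coding genes, 4.47%, and Vmn1r receptors have the largest share with 27.1%.

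Other lists had between 1 and 8 starts in short LoNRDs, or none. Above the 4.47% over all genes were Pramel genes with 2 of 15 (13.3%), cytochromes P450 with 6 of 99 (6.06%) and ADAM and ADAMTS proteases with 3 of 51 (5.88%). Below it, Wnt, Fgf and Bmp growth factors had 2 of 59, neurotransmitter receptors 3 of 89 and cytosolic ribosomal proteins 2 of 78. Solute carriers had 8 of 370, synaptic adhesion proteins 1 of 60, the aldo-keto reductase, Ugt, Gst and Sult list 1 of 81 and homeobox and forkhead factors 2 of 234. No start was found for trace amine and bitter taste receptors, cadherins and protocadherins, potassium channels, sodium and calcium channels, keratins, epidermal barrier genes or C-type lectins.

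Lists of genes of the ES cell state were small, and their shares are to be read beside the 4.47% over all protein-coding genes. None of the 29 core pluripotency factors in autosomal NRDs and none of the 57 imprinted genes started in a short LoNRD. At 4.47% lists of this size would hold few starts, so their absence is not read as a difference. Of the list of 2-cell-like state genes, which a rare subset of ES cells expresses, 5 of 25 did so (20.0%). These were Usp17la, Usp17lb and Usp17le in the olfactory domain chr7:104500001-105300000, Usp17lc in chr7:103300001-104100000, and Gm13119 in chr4:144300001-144700000, which was 62.5% late. The 5 starts thus rest on 3 domains. Short TiNRDs held 8 of the 25, beside 1389 of 20596 over all genes, so a raised share was not particular to short LoNRDs.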

How the data were processed

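The analysis used 2 lists deposited by the authors. For NRDs the authors aligned reads to mm10 with Bowtie2 2.5.1 after trimming with cutadapt 4.3 and filtered them by mapping quality. They compared long with short fragments in 100 kb bins, smoothed the wrapping index over neighbouring bins and called runs of positive or negative index. Per domain the authors deposited this index as a score without a unit. For RT domains the deposited value is a log2 ratio of early to late fractions in 50 kb windows, made by the authors and scaled over the genome. How a domain's value was made from its bins, and how the experiments entered each list, is not given in the sources used here. Of the series' 39 samples, the libraries outside H3 wrapping and RT were not analysed here, nor were signal tracks of single experiments.

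Overlaps, base composition (GRCm38) and gene starts (GENCODE M21) were computed with Python 3.11.15, numpy 2.4.6 and pandas, and figures with matplotlib 3.10.9. The early share of the members differed from that of bedtools 2.31.1 by 0 bp, and the overlap code was checked on simulated domains. All domains lay inside GRCm38, which has the coordinates of mm10. Uncalled bases count in the length of a domain and not in its mean RT value. Lower-case bases of the reference were taken as repeats. A gene belongs to the domain that holds its start, and the gene count includes predicted genes and near-identical copies.

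Members and gene lists were chosen with earlier results of these data known, so no test was run and no p-value is given. Named domains are the 5 with most gene starts, the 5 lowest scores, the 5 earliest and 5 latest where 1 kind of RT domain took up 90% or more of the length, at most 10 with a gene over at least 80% of the length (longest genes first), and those with at least 5 starts of a list, with ties going to the longer domain. A domain chosen by this rule is not reported here. The lists were gene families set by symbol, core pluripotency factors, 2-cell-like state genes and imprinted genes, and every member of the last 3 that starts in a short LoNRD is named. The depth behind each domain is unknown. Alternatives were other length limits, merging of LoNRDs, X and Y, weak scores left out, other measures of the early share, gaps to neighbours, repeats left out and other ways of counting genes.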

Additional observations from a re-analysis of the deposited data

How the results depend on the processing

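Of 26 alternatives for 5 values, 14 left the value inside its 95% interval (exact binomial over domains for shares, order statistics for the median, exact Poisson for gene density), or a count within 1.5 times, and 12 moved it. Intervals cover the number of domains or genes, not the error of the calls. The 234 members became 109 with a limit of 500 kb and 117 with the 25% of LoNRD scores nearest 0 left out. The share at least 50% early, 30.3%, was 41.3% with the 500 kb limit and 21.8% when 80% of the length was asked for. The median A/T content, 59.6%, was 59.4% with the 500 kb limit, 58.9% with repeats left out and 60.1% without the weak scores. Gene density, 7.45 per Mb, was 8.40 with the 500 kb limit, 6.26 with 1500 kb, 8.10 for any overlap with a gene, 8.03 without the weak scores and 5.41 without olfactory and vomeronasal receptors, the last chosen after seeing the data. The share with a TiNRD on both sides, 79.5%, stayed between 75.2 and 82.6%. With members under 99% assembled left out, also chosen after seeing the data, 29.1% were at least 50% early. No paired analysis was possible because the 2 lists used here carry no values per experiment, and for the same reason no experiment was left out. The 100 kb bins, and the smoothing of the index over neighbouring bins, limit how well a border can be placed. Members of 300 and 400 kb are the most affected.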
